A study of Mus musculus with 24 samples.

Results

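The mitochondrial ribosomal proteins were followed across 4 light conditions in engineered mouse muscle. All genes named Mrpl or Mrps plus a number were taken from the count and TPM tables, names ending in -ps (pseudogenes) were left out, and a mean of at least 1 TPM (a level scaled to a common total and corrected for transcript length) over all libraries was asked for. This left 78 genes of 56941 in the tables: 84 names fitted the pattern, 6 of them were pseudogenes, and no gene fell below 1 TPM. Of the 78, 51 encode proteins of the large subunit, 26 encode proteins of the small subunit, and Mrps36 keeps its ribosomal name although its product is a component of the alpha-ketoglutarate dehydrogenase complex.

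The muscle was grown from C2C12, an immortal mouse myoblast line, carrying ChR2::tdTomato, a blue-light-gated cation channel fused to a red fluorescent protein. Myoblasts were seeded on grooved fibrin hydrogels in separate wells and differentiated for about 2 weeks in medium with horse serum and IGF-1. Tissues received light for 30 min per day at 1, 4, or 10 Hz, and control tissues received none. Each condition had 6 libraries, 24 in all, each from its own tissue. All tissues, the controls included, carried the channel and descended from the same line, and tissues could twitch without light. The question was how the frequency of daily exercise changed the RNA levels of the protein part of the mitochondrial translation machinery.

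Mitochondria keep a small genome that encodes the ribosomal and transfer RNAs of the organelle and a few proteins of the respiratory chain. These proteins are made inside the organelle by its own ribosome, whose RNAs come from the mitochondrial genome and whose proteins are all encoded in the nucleus, made in the cytosol, and imported. Part of the proteins descend from bacterial ribosomal proteins and part arose later and are found only in mitochondria. In muscle, the ribosome supplies the core subunits of the enzymes that make ATP by respiration.

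The libraries held between 4.09 M and 15.2 M estimated counts (median 7.48 M), and a single member held between 32 and 1754 counts in a library (median 304). Muscle markers were present throughout, with a summed TPM of Acta1, Ckm, Myh3, Tnnt3, Tnni2, Mylpf, Des, and Myog of 9035 to 11536 in the controls, 14361 to 18479 at 1 Hz, 14409 to 20906 at 4 Hz, and 9569 to 15245 at 10 Hz. By edgeR's adjusted p, 7 of these 8 genes were higher at 1 Hz, 7 at 4 Hz, and 4 at 10 Hz than in the controls, beside 18.1%, 19.2%, and 2.67% of all genes. The myoblast markers Myod1, Myf5, and Pax7 summed to 31.1 to 67.3 TPM in the controls, 72.8 to 96.4 at 1 Hz, 67.6 to 116.5 at 4 Hz, and 47.0 to 103.9 at 10 Hz, so that 1 and 4 Hz did not overlap the controls. Within this list Myod1 and Pax7 were higher at 1 and 4 Hz, and Myf5 was lower at 4 Hz. Markers of dividing cells (Mki67, Top2a, Ccnb1, and Cdk1) summed to 27.4 to 47.9 TPM in the controls, 23.9 to 30.2 at 1 Hz, 18.8 to 33.6 at 4 Hz, and 26 to 34.6 at 10 Hz. Those of fibroblasts (Dcn, Lum, Pdgfra, and Thy1) summed to 24.7 to 56.8, 25.4 to 43.6, 20.7 to 27.4, and 24.1 to 36.0 TPM in the same order, with Dcn lower at 4 Hz and Pdgfra higher at 1 Hz than in the controls. Of the 4 markers of dividing cells, 2 rose (19.2% of all genes did) and 1 fell (20.2%) at 4 Hz against the controls by adjusted p. At 1 Hz 0 rose (18.1% of all genes) and 1 fell (17.3%). Cdk1 had the highest mean TPM of these 4 (28.6 in the controls and 17.6 at 4 Hz), so their sum mostly follows Cdk1. The part of these shifts in the results below was not tested. Markers of blood, nerve, endothelium, and epithelium were at or near 0, with haemoglobin beta (Hbb-bs) at 0 in all 24 libraries. Small RNAs without a poly(A) tail, which poly(A) selection should remove, summed to 95.7 to 167 CPM (counts per library scaled to a common total) in the controls, 14.6 to 69.2 at 1 Hz, 18.3 to 49.7 at 4 Hz, and 36.9 to 271 at 10 Hz. The controls did not overlap 1 or 4 Hz in this measure, so that RNA preparation and light cannot be told apart in those comparisons, whereas 1 and 4 Hz overlapped.

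All 78 genes passed the filter on low counts. Their mean levels spanned 24.7-fold, from 19.96 TPM for Mrps2 to 493 TPM for Mrpl33, with a median of 62.7 TPM, and 58 of the 78 lay within a factor of 2 of that median. The median over all 13318 genes tested was 16.1 TPM. Mrpl33, a small large-subunit protein with a bacterial counterpart, was followed by the small-subunit protein Mrps23 at 278 TPM, Mrpl52 at 256.5 TPM, Mrps21 at 212 TPM, and Mrpl30 at 205 TPM. At the other end stood Mrps30 (22.3 TPM, a large-subunit protein in spite of its name), Mrps27 (23.01 TPM, an RNA-binding small-subunit protein), Mrpl1 (24.1 TPM, part of the stalk beside the tRNA exit), and Mrpl55 (24.2 TPM). Large-subunit genes had a median of 67.5 TPM and small-subunit genes one of 55.6 TPM.

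**Figure D1:**
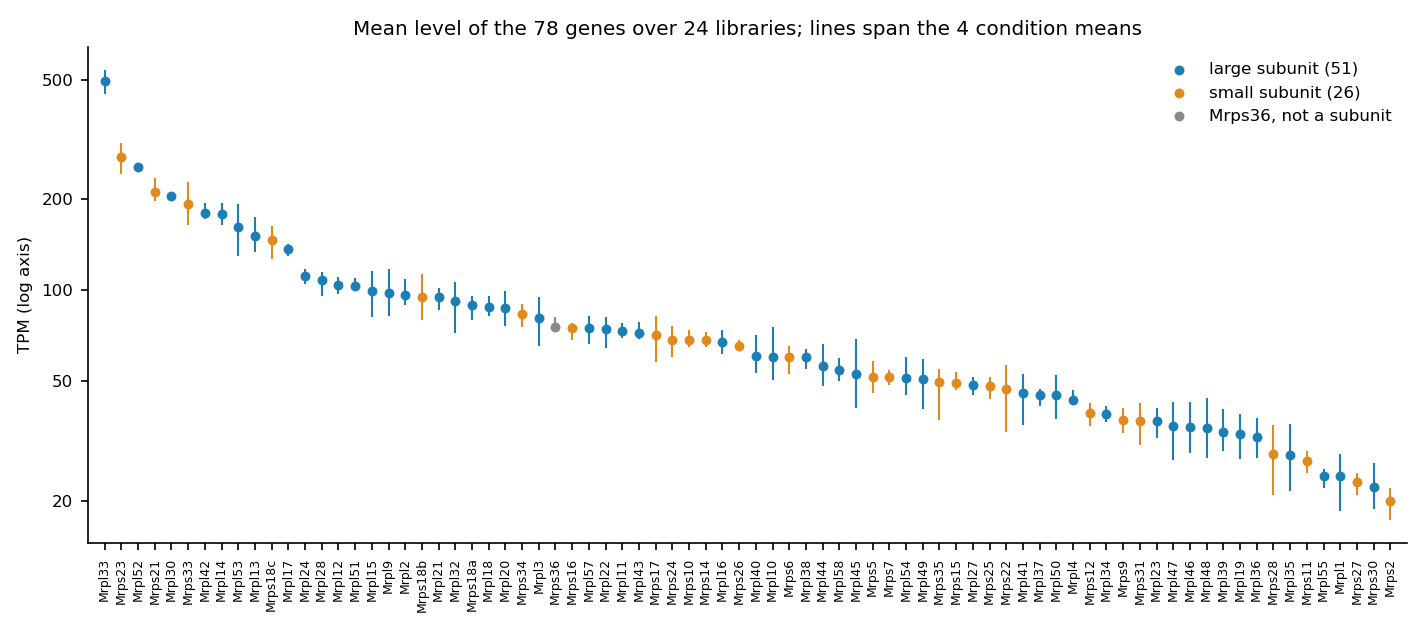
Mean TPM of each of the 78 genes over 24 libraries (points, log axis, ordered from high to low), coloured by subunit, with lines from the lowest to the highest of the 4 condition means. Most genes lie close to the median of 62.7 TPM, Mrpl33 stands alone at 493 TPM, and the lines are short beside the 24.7-fold range between genes.

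Members varied less between replicates than genes at large. The SD of log2 CPM within conditions had a median of 0.16 over the members and 0.23 over all genes tested. The members also had higher levels (median 62.7 TPM against 16.1 TPM), and the spreads were not matched for level. Mrpl24 (0.09), Mrpl51 (0.10), and Mrpl21 (0.10), all large-subunit proteins, varied least, and Mrpl1 (0.31), Mrps11 (0.31), and Mrps28 (0.30) varied most. Member transcripts were short, with a median length of 1812 nt in the annotation against 3231 nt over all genes tested, and a similar GC content (median 49.55% against 50.3%). The members lay on 17 chromosomes.

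Genes for mitochondrial proteins often carry promoter motifs of a few shared factors, so the 250 bases before and 50 bases after the annotated canonical start of each gene were searched on both strands (GENCODE M39 on GRCm39). The ETS motif CCGGAAG, bound by GABP, was present in 24 of 78 members (30.8%) and in 16.0% of 11973 tested protein-coding genes. The YY1 motif AAGATGG was present in 11.5% of members and 6.39% of all, the E-box CACGTG in 6.41% and 10.3%, and the NRF1 motif (its palindromic core) in 1.28% and 1.90%. No match of a motif overlapped a match of another in the members. These are matches of letters and not measured binding. The 250 bases before the start of 4 members are shown, with motif matches in capitals. Mrpl45 (chr11:97206292-97206541, plus strand) and Mrps28 (chr3:8988979-8989228, minus strand), which moved furthest down and up at 1 Hz, held no match to the 4 searched strings before the start. Mrpl45 did hold gcgcacgcgc, left in lower case, which has C for T in the searched NRF1 string. Mrpl58 (chr11:115294321-115294570, plus strand) and Mrps22 (chr9:98483721-98483970, minus strand), both higher at 4 Hz than at 1 Hz, held the ETS motif 10 and 23 bases before it. Mrpl58, a peptidyl-tRNA hydrolase built into the large subunit, was chosen after its values were seen. Its lowest, median, and highest CPM were 17.6, 19.6, and 23.1 at 1 Hz and 21.4, 25.1, and 29.9 at 4 Hz, in overlapping groups.
Mrpl45: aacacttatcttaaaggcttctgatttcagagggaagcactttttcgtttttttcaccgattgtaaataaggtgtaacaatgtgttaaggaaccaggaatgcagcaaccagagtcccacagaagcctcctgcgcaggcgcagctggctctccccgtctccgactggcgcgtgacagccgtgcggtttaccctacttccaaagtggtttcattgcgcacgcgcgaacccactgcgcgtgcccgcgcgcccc
Mrps28: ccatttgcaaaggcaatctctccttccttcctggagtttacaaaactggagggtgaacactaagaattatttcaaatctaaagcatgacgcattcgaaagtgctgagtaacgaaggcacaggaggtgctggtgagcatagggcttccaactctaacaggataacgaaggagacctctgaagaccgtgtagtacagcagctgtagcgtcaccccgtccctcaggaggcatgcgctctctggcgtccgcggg
Mrpl58: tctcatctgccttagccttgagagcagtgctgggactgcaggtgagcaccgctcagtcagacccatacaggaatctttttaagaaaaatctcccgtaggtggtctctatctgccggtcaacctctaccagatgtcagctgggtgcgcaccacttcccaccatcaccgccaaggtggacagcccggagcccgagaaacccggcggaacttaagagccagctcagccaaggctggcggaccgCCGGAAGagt
Mrps22: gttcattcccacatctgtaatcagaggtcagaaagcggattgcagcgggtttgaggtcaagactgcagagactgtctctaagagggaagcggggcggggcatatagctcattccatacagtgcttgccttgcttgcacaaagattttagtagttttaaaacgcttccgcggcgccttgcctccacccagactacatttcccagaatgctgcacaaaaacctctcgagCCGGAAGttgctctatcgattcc

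Summed over the 78 genes, the level was lowest at 1 Hz. On TMM-scaled CPM, the sum had its lowest, median, and highest library at 3213, 3534, and 3723 in the controls, 3134, 3171, and 3437 at 1 Hz, 3638, 3871, and 4088 at 4 Hz, and 3620, 3819, and 4277 at 10 Hz. The 1 Hz libraries did not overlap those at 4 or 10 Hz and overlapped the controls. In TPM the means were 6576 ± 305 in the controls, 5955 ± 218 at 1 Hz, 6617 ± 253 at 4 Hz, and 6835 ± 339 at 10 Hz (SD, n = 6), with the top 1 Hz library (6365) just above the bottom 4 Hz library (6347). Members took 0.318% of all counts at 1 Hz and 0.364% to 0.394% in the other conditions. The ratio of small- to large-subunit TPM lay at 0.450 ± 0.011 in the controls, 0.444 ± 0.006 at 1 Hz, 0.447 ± 0.009 at 4 Hz, and 0.457 ± 0.011 at 10 Hz. In bulk RNA, fewer cells of a type and less of an RNA per cell cannot be told apart.

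**Figure D2:**
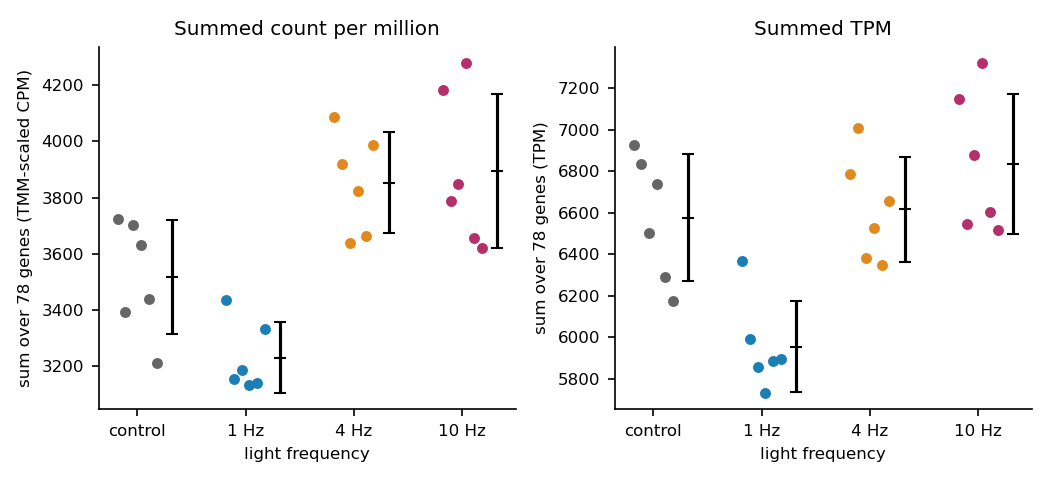
Sum over the 78 genes in each library, as TMM-scaled CPM (left) and TPM (right), by light frequency, with the mean and SD of 6 libraries in black and axes that do not start at 0. The 1 Hz libraries (3134 to 3437 CPM) sit below all 4 Hz and 10 Hz libraries in CPM, and in TPM 1 of them overlaps the 4 Hz range.

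Genes were tested with edgeR in 1 fit of all 24 libraries, with p-values adjusted over all 13318 genes. A gene is said to rise or fall where its adjusted p was below 0.05, and to pass the fold rule where its log2 fold change was also beyond 0.5 in size. Of the 78 members, 62 passed the adjusted p in at least 1 of the 6 comparisons, 19 passed the fold rule in at least 1, and 16 passed in none. The mean CPM was lowest at 1 Hz for 53 members and in the controls for 22, and it was highest at 4 Hz for 36, at 10 Hz for 30, and in the controls for 11. The matching shares over all genes were not computed, so these counts are not read as particular to the members. At 4 Hz against control alone, 19.2% of all genes rose and 20.2% fell. The 3 comparisons with the controls share those 6 control libraries, and the comparisons of frequencies share theirs in the same way. Shares over all genes were not computed for an unadjusted p below 0.05, nor for the adjusted p alone under other scalings, tools, covariates, or left-out libraries. Member counts of these kinds below therefore have no background beside them.

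**Figure D3:**
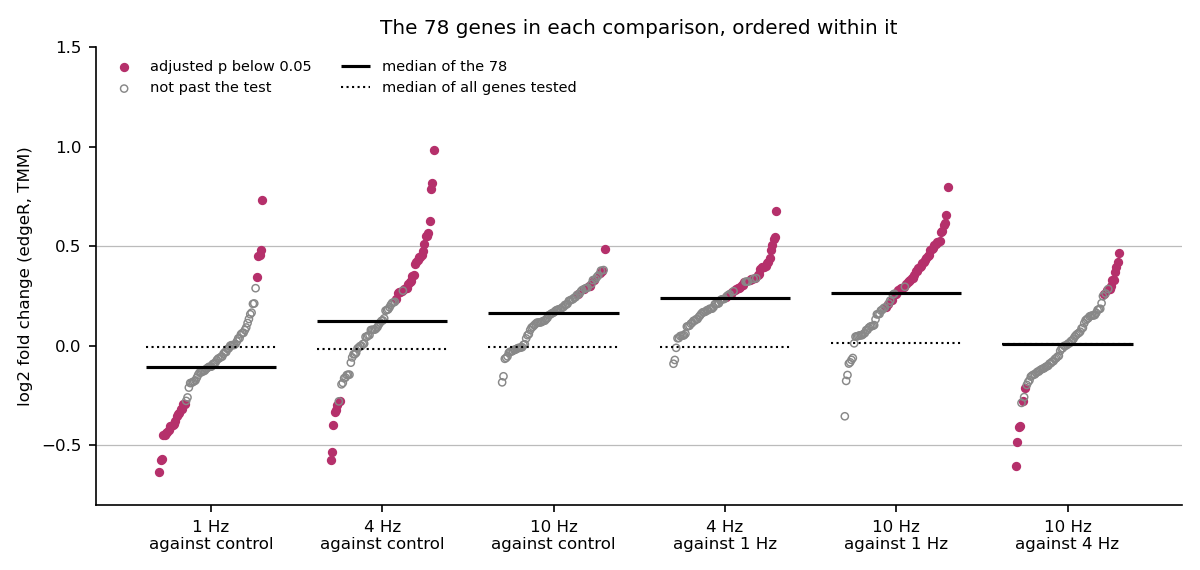
Log2 fold changes (edgeR, TMM scaling) of the 78 genes in each comparison, ordered within it, filled where the adjusted p was below 0.05, with the median of the members (solid) and of all genes tested (dotted) and grey lines at 0.5 and -0.5. The members lie mostly below 0 for 1 Hz against control (median -0.11) and mostly above 0 for 4 Hz (0.24) and 10 Hz (0.27) against 1 Hz. The members' median for 4 Hz against control (0.13) falls to -0.04 on the TPM scale, where that of all genes falls to -0.16.

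At 1 Hz the members leaned downward against the controls. By adjusted p, 20 fell (25.6%, against 17.3% of all genes tested) and 5 rose (6.41%, against 18.1%), with a median log2 fold change of -0.11 over members and -0.01 over all genes. Under the fold rule 3 fell (8.99% of all genes did) and 1 rose (9.34% of all genes), shares that do not exceed the background. Without 1 Hz replicate 1 5 fell and 3 rose under the fold rule, and without control replicate 1, 3, or 4 the count that rose became 2. On log2(TPM + 1), the members past the fold rule were 8 lower and 1 higher (1157 and 828 of all genes in that run), and with total count scaling 7 and 1 (1592 and 943). With the small RNA level as a covariate, which is nearly tied to the groups here, 0 members passed the adjusted p and 7 had an unadjusted p below 0.05. The groups did not overlap for 6 lower members (5.86% of all genes) and 3 higher members (7.22%).

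Coordinates here are GRCm39 gene bounds. Mrpl45 (chr11:97206542-97232865), a mitochondria-specific protein near the tunnel through which new chains leave towards the inner membrane, fell most. It ranged from 97.5 over a median of 107.5 to 113 CPM in the controls and from 59.8 over 66.8 to 85.8 CPM at 1 Hz. The 2 groups did not overlap, and the log2 fold change was -0.63 ± 0.09 (SE, adjusted p = 1.09e-05, edgeR). Mrps22 (chr9:98470779-98483732), a mitochondria-specific small-subunit protein, had 32.8, 37.8, and 43.3 CPM (lowest, median, highest) in the controls and 22.1, 25.5, and 28.8 CPM at 1 Hz. Again every 1 Hz library lay below every control, with a change of -0.57 ± 0.09 (adjusted p = 4.62e-05, edgeR). Mrpl35 (chr6:71785165-71803953), a protein of bacterial descent in the large subunit, went from 24.1, 29.7, and 32.3 CPM to 18.1, 19.4, and 22.1 CPM, also without overlap (-0.57 ± 0.10, adjusted p = 0.000157, edgeR). Mrps28 (chr3:8865093-8988978), the counterpart of part of bacterial S1, moved the other way. Its controls lay at 6.99, 8.86, and 10.7 CPM and its 1 Hz libraries at 12.3, 12.7, and 20.0 CPM, all above the controls (0.73 ± 0.18, adjusted p = 0.0025, edgeR). The remaining members that fell changed by -0.45 to -0.29, among them Mrpl9, Mrpl10, Mrpl49, and Mrps30, and those that rose were Mrpl48, Mrpl23, Mrpl53, and Mrps6 (0.34 to 0.48).

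**Figure D4:**
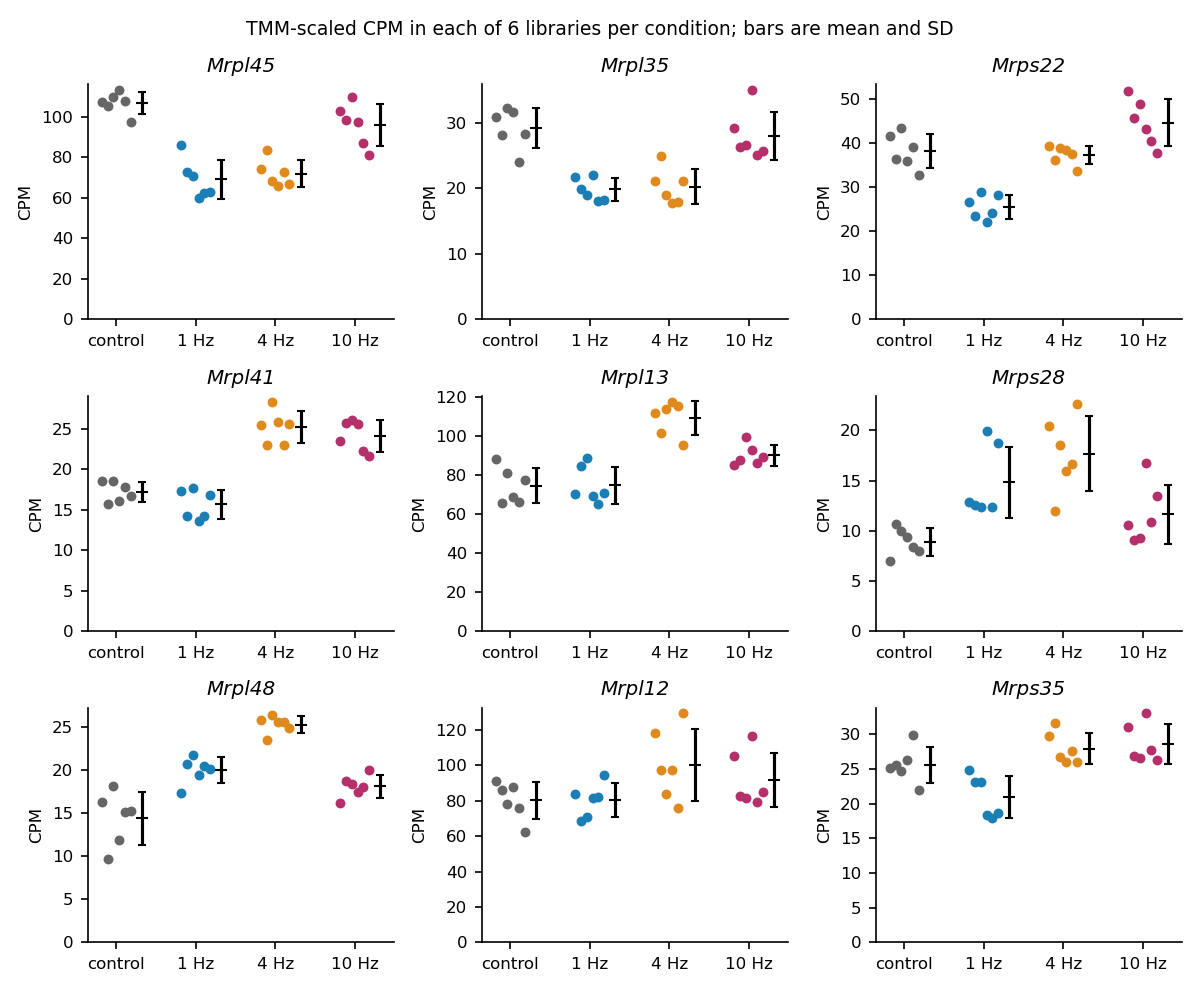
TMM-scaled CPM of 9 named members in each library, by condition, with the mean and SD of 6 libraries in black and axes from 0. Mrpl45 and Mrpl35 are low at 1 and 4 Hz, Mrps22 is low at 1 Hz alone among the group means, Mrpl41 is high at 4 and 10 Hz, and Mrpl12 overlaps across all conditions.

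At 4 Hz more members rose than fell against the controls on the count scale, and this lean depends on the scaling. By adjusted p, 28 rose (35.9%, against 19.2% of all genes) and 7 fell (8.97%, against 20.2%), with a median log2 fold change of 0.13 over members and -0.01 over all genes. On log2(TPM + 1), where the median of all genes itself moved to -0.16, 13 rose and 16 fell, and the members' median was -0.04. With total count scaling, which moved the median of all genes to -0.11, 20 rose and 12 fell, and with the small RNA level as a covariate 2 rose and 0 fell. Under the fold rule 8 rose (10.5% of all genes) and 2 fell (9.61%), with 3 and 5 on the TPM scale, and 1 fell without 4 Hz replicate 4 or 5. The groups did not overlap for 15 higher members (8.68% of all genes) and 1 lower member (7.93%).

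Mrps28 rose most at 4 Hz, from 6.99, 8.86, and 10.7 CPM in the controls to 11.97, 17.6, and 22.7 CPM, with no overlap and a log2 fold change of 0.98 ± 0.18 (adjusted p = 0.000103, edgeR). Mrpl48 (chr7:100194939-100257508), a protein of the central protuberance, had 9.70, 15.2, and 18.1 CPM in the controls and 23.4, 25.5, and 26.4 CPM at 4 Hz. These groups were also separate (0.82 ± 0.11, adjusted p = 2.87e-06, edgeR). Mrpl53, a mitochondria-specific large-subunit protein, rose from 40.1, 47.0, and 53.6 CPM to 64.4, 80.3, and 106.9 CPM (0.79 ± 0.12, adjusted p = 1.15e-05, edgeR). Mrpl54, of the same class, rose from 9.20, 14.3, and 15.4 CPM to 17.5, 21.2, and 24.3 CPM (0.63 ± 0.14, adjusted p = 0.000715, edgeR), and for both genes every 4 Hz library exceeded every control. The other members past the fold rule upward were Mrpl23, Mrpl41, Mrpl13, and Mrps6, at 0.51 to 0.57. Mrpl45 and Mrpl35 were again below the controls. Mrpl45 had 65.9, 70.3, and 83.6 CPM at 4 Hz, all below the lowest control (-0.57 ± 0.09, adjusted p = 1.49e-05, edgeR). Mrpl35 had 17.7, 20.0, and 24.9 CPM at 4 Hz, where the top library passed the lowest control (-0.53 ± 0.10, adjusted p = 0.000187, edgeR).

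At 10 Hz few members passed the test against the controls. By adjusted p, 8 rose (10.3%, against 2.67% of all genes) and 0 fell (2.22% of all genes), and the median log2 fold change was 0.17 over members and -0.01 over all genes, with 62 of 78 above 0. The members' median stayed above 0 on the TPM scale (0.03, beside -0.09 over all genes), where 3 rose. Without control replicate 2 or 10 Hz replicate 4 the count that rose became 4, and without control replicate 5 or 10 Hz replicate 1 it became 5. No member passed the fold rule in edgeR (1.24% of all genes rose and 0.623% fell) or DESeq2, and 1 passed it without control replicate 1 or 3 or 10 Hz replicate 5 or 6. In edgeR 33 members had an unadjusted p below 0.05, a count without a share over all genes. The groups did not overlap for 5 higher members (1.28% of all genes) and 0 lower members (1.30%).

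Mrpl41 (chr2:24862319-24865956), a mitochondria-specific large-subunit protein also studied in cell death, had the smallest p upward. Its controls lay at 15.7, 17.3, and 18.6 CPM and its 10 Hz libraries at 21.7, 24.6, and 26.1 CPM, with no overlap (0.49 ± 0.09, adjusted p = 0.0021, edgeR). Mrpl3 (0.36), Mrpl20 (0.38), Mrpl33 (0.33), Mrpl21 (0.30), Mrps10 (0.30), Mrps33 (0.28), and Mrps23 (0.26) were the other members that rose. Mrpl10, which anchors the L7/L12 stalk, had the smallest p downward, with 67.0, 84.0, and 88.0 CPM in the controls and 62.4, 68.6, and 87.9 CPM at 10 Hz. The groups overlapped and the change of -0.18 ± 0.09 missed the threshold (adjusted p = 0.27, edgeR).

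Against 1 Hz, most members moved upward at 4 Hz and at 10 Hz. At 4 Hz against 1 Hz, 75 of 78 log2 fold changes were above 0, 30 members rose (38.5%, against 5.71% of all genes), and 0 fell (6.56% of all genes), with a median of 0.24 over members and 0.00 over all genes. No alternative run turned this: on log2(TPM + 1) 10 rose and 0 fell, with the small RNA level as a covariate 31 and 0, and after a correction for GC content and transcript length 24 and 0. The count that rose became 16 without 1 Hz replicate 4. In edgeR 48 members had an unadjusted p below 0.05, and in DESeq2 34 rose and 0 fell by adjusted p, counts without a share over all genes. Under the fold rule 4 rose (1.59% of all genes) and 0 fell (1.40%), with 2 rising without 1 Hz replicate 4. The groups did not overlap for 14 higher members (2.37% of all genes) and 0 lower members (3.33%).

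Mrpl41 led, from 13.7, 15.6, and 17.7 CPM at 1 Hz to 22.98, 25.6, and 28.4 CPM at 4 Hz, without overlap (0.68 ± 0.09, adjusted p = 2.48e-05, edgeR). Mrpl13, of bacterial descent, had 65.1, 70.5, and 88.6 CPM at 1 Hz and 95.4, 112.7, and 117.4 CPM at 4 Hz. The groups were separate (0.55 ± 0.09, adjusted p = 0.000236, edgeR), and the change at 1 Hz against control was 0.00. Mrps22 rose from its low at 1 Hz to 33.8, 37.99, and 39.5 CPM at 4 Hz, all above 1 Hz (0.54 ± 0.09, adjusted p = 0.000426, edgeR), and these values overlapped the controls. Mrpl1 had 20.4, 28.0, and 35.0 CPM at 1 Hz and 24.1, 39.7, and 51.3 CPM at 4 Hz. Here the groups overlapped (0.50 ± 0.16, adjusted p = 0.039, edgeR), and the adjusted p rose above 0.05 when any of 7 libraries was left out (1 Hz replicates 4, 5, and 6 and 4 Hz replicates 2, 3, 4, and 5, from 0.064 to 0.106). Mrps2, an early-binding small-subunit protein, had the smallest p downward, with 24.2, 27.4, and 34.7 CPM at 1 Hz and 23.8, 26.4, and 30.0 CPM at 4 Hz (-0.09 ± 0.10, adjusted p = 0.62, edgeR).

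At 10 Hz against 1 Hz the members again leaned upward. Here 42 rose (53.8%, against 17.7% of all genes) and 0 fell (18.5% of all genes), with a median of 0.27 over members and 0.01 over all genes and 71 of 78 above 0. Small RNAs also rose from 1 to 10 Hz, and with their level as a covariate 3 rose and 0 fell, with a median of 0.22. On log2(TPM + 1) 31 rose and 0 fell, and without 10 Hz replicate 4, 39 rose and 1 fell. In edgeR 49 members had an unadjusted p below 0.05, and in DESeq2 44 rose and 0 fell, counts without a share over all genes. Under the fold rule 11 rose (9.45% of all genes) and 0 fell (8.49%), with 7 rising without 1 Hz replicate 4 or 5. The groups did not overlap for 20 higher members (5.67% of all genes) and 0 lower members (7.48%).

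Mrps22 had the largest difference between any 2 frequencies among the members, with 22.1, 25.5, and 28.8 CPM at 1 Hz and 37.7, 44.5, and 51.8 CPM at 10 Hz. No 1 Hz library reached the 10 Hz range (0.80 ± 0.09, adjusted p = 7.08e-07, edgeR). Mrpl1 had 37.2, 42.8, and 51.4 CPM at 10 Hz, all above its 1 Hz libraries (0.66 ± 0.16, adjusted p = 0.0023, edgeR). Mrpl41 repeated its rise with 21.7, 24.6, and 26.1 CPM at 10 Hz (0.62 ± 0.09, adjusted p = 1.11e-05, edgeR). Mrpl46, a protein of the central protuberance like Mrpl48, had 18.3, 19.5, and 22.9 CPM at 1 Hz and 24.01, 31.6, and 36.2 CPM at 10 Hz, without overlap (0.61 ± 0.11, adjusted p = 0.000136, edgeR). The other members past the fold rule were Mrps17, Mrpl49, Mrpl50, Mrpl32, Mrpl15, Mrpl47, and Mrpl35, at 0.50 to 0.57. Mrps28 had the smallest p downward, with 9.05, 10.7, and 16.8 CPM at 10 Hz, overlapping 1 Hz (-0.35 ± 0.17, adjusted p = 0.102, edgeR), and the adjusted p was 0.026 without 10 Hz replicate 4.

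Between 10 and 4 Hz the members moved both ways, with 10 that rose (12.8%, against 10.9% of all genes), 6 that fell (7.69%, against 11.9%), and a median of 0.01 over both members and all genes. These shares are near the background. The split was 14 and 3 on the TPM scale and 17 and 3 with total count scaling. With the small RNA level as a covariate 0 members rose and 0 fell, as did 0 of all genes under the fold rule, and 6 members had an unadjusted p below 0.05. The count that rose became 5 without 4 Hz replicate 6 and 6 without 10 Hz replicate 1. Under the fold rule 0 rose (5.32% of all genes) and 1 fell (5.64%). In edgeR 27 members had an unadjusted p below 0.05, a count without a share over all genes. The groups did not overlap for 2 higher members (2.67% of all genes) and 2 lower members (3.54%). Mrps28 was the member past the fold rule, with 11.97, 17.6, and 22.7 CPM at 4 Hz and 9.05, 10.7, and 16.8 CPM at 10 Hz, in overlapping groups (-0.60 ± 0.17, adjusted p = 0.011, edgeR), and 2 members fell past it without 10 Hz replicate 6, 4 Hz replicate 2, or 4 Hz replicate 6, with 1 that rose past it without 4 Hz replicate 2. Mrpl45 was higher at 10 Hz, with 81.2, 97.6, and 109.6 CPM against 65.9, 70.3, and 83.6 CPM (0.42 ± 0.09, adjusted p = 0.0014, edgeR), within the size limit of the fold rule.

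Mrpl12, the L7/L12 counterpart that also binds the mitochondrial RNA polymerase, and Mrps35, a mitochondria-specific small-subunit protein, were the 2 genes chosen to mark the group. Mrpl12 had 62.4, 82.1, and 91.4 CPM in the controls, 68.6, 82.0, and 94.8 CPM at 1 Hz, 75.7, 97.5, and 129.4 CPM at 4 Hz, and 79.2, 84.0, and 116.7 CPM at 10 Hz. All 4 ranges overlapped. Its adjusted p at 4 Hz against control was 0.039 (0.32 ± 0.12, edgeR), and this rose above 0.05 without 4 Hz replicate 1 or 6 or control replicate 3, 5, or 6 (0.066 to 0.108), with total count scaling, and on the TPM scale. Mrps35 had 21.9, 25.4, and 29.9 CPM in the controls, 17.9, 20.9, and 24.8 CPM at 1 Hz, 26, 27.2, and 31.6 CPM at 4 Hz, and 26.2, 27.3, and 33.1 CPM at 10 Hz. Its 1 Hz libraries lay below all 4 and 10 Hz libraries, with changes of 0.42 ± 0.10 (adjusted p = 0.0055, edgeR) and 0.45 ± 0.10 (adjusted p = 0.00069, edgeR). Against the controls the change at 1 Hz was -0.29 ± 0.10 (adjusted p = 0.023, edgeR), and without 1 Hz replicate 4, 5, or 6 or control replicate 5 the adjusted p was 0.064.

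The lean was shared by the parts of the ribosome. At 10 Hz against 1 Hz, 30 of 51 large-subunit genes (58.8%, median 0.28) and 12 of 26 small-subunit genes (46.2%, median 0.23) rose, beside 17.7% of all genes. At 4 Hz against 1 Hz the numbers were 18 (35.3%, median 0.23) and 12 (46.2%, median 0.25), beside 5.71% of all genes. By descent, small-subunit proteins found only in mitochondria had medians of 0.32 at 4 Hz and 0.33 at 10 Hz against 1 Hz, with 6 and 7 of 10 rising, and those with a bacterial counterpart had 0.21 and 0.18, with 6 and 5 of 16 rising. The large subunit did not repeat this order at 4 Hz, where its mitochondria-specific proteins had a median of 0.21 (7 of 21 rising) and those with a bacterial counterpart 0.24 (11 of 30). In the 10 Hz comparison these were 0.29 (11 of 21) and 0.27 (19 of 30). The difference between the classes was not tested. The direction of change had no common relation to the ETS motif across comparisons, and this was not tested. For 4 Hz against control, 13 of the 28 members that rose held it (46.4%), beside 0 of the 7 that fell and 11 of the 43 others (25.6%). For 4 Hz against 1 Hz, 11 of the 30 that rose held it (36.7%), beside 13 of the 48 others (27.1%). For 10 Hz against 1 Hz it was less common in the 42 that rose (10, or 23.8%) than in the 36 others (14, or 38.9%), and for 10 Hz against 4 Hz it was held by 1 of the 10 that rose and 3 of the 6 that fell. The 16 members that passed in no comparison were Mrpl4, Mrpl18, Mrpl34, Mrpl37, Mrpl38, Mrpl42, Mrpl43, Mrpl52, Mrps2, Mrps5, Mrps11, Mrps12, Mrps14, Mrps15, Mrps25, and Mrps36, and the highly expressed Mrpl52 was among them.

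Short and long transcripts changed unequally between the libraries, so members were also read against genes of like length in the annotation. The annotated length need not be that of the transcripts counted. Mrpl17 (7366 nt) had a mean of 444.8 counts at 136.6 TPM, and Mrpl21 (1086 nt) had 347.8 counts at 94.56 TPM. Some members may therefore stand in the wrong length class. At 4 Hz against 1 Hz, the median log2 fold change was 0.15 over the 3012 tested genes of at most the members' median length and -0.04 over the 10281 longer genes, while it was 0.23 over the 39 shorter members and 0.25 over the 39 longer ones. At 10 Hz against 1 Hz the medians were 0.14 and -0.03 over all genes and 0.26 and 0.29 over the members. At 10 Hz against control they were 0.10 and -0.03 over all genes and 0.19 and 0.16 over the members. In these 3 comparisons shorter and longer members both stood above genes of their annotated length class, the shorter ones by less. Against control, the medians at 4 Hz were 0.11 and -0.04 over all genes and 0.12 and 0.13 over the members, and at 1 Hz they were -0.03 and 0.00 over all genes and -0.09 and -0.11 over the members. Between 10 and 4 Hz they were 0.00 and 0.01 over all genes and -0.06 and 0.05 over the members. These differences were not tested.

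Some members share sequence or position with other genes. Mrpl27-ps (22.7 TPM), Mrpl23-ps1 (21.4 TPM), and Mrpl48-ps (5.98 TPM) were counted, and reads could have been split between them and Mrpl27, Mrpl23, and Mrpl48, whose values are uncertain to that extent. Mrpl48-ps had a log2 fold change of 0.84 at 4 Hz against control (adjusted p = 0.061, edgeR), beside 0.82 for Mrpl48. The 3 Mrps36 pseudogenes were at or near 0. Exons of 20 members overlap those of another tested gene, 18 on the opposite strand (such as Mrps22 with Copb2 and Mrpl13 with Mtbp) and 2 on the same strand (Mrps6 with Slc5a3 and Mrps15 with Oscp1). The sources used here do not say whether counting used the strand.

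Other proteins of the ribosome carry other names. Of Dap3, Ptcd3, Aurkaip1, Chchd1, and Gadd45gip1, 3 rose (19.2% of all genes did) and 0 fell (20.2%) at 4 Hz against control (median 0.28). On the TPM scale 1 rose and 1 fell. Chchd1, a small-subunit protein, averaged 62.9 ± 6.7 CPM without light (SD, n = 6). Light at 1 Hz left it at 58.6 ± 8.0 CPM, light at 4 Hz at 86.3 ± 5.8 CPM, and light at 10 Hz at 81.3 ± 4.6 CPM, with 4 Hz above 1 Hz by 0.56 ± 0.08 (SE, adjusted p = 0.000138, edgeR). Dap3, which binds GTP in the small subunit, did not pass in any comparison and lay at 89.0 to 98.5 CPM in the condition means. The 2 ribosomal RNAs, mt-Rnr1 and mt-Rnr2, are poorly kept by poly(A) selection and moved with the small RNAs. mt-Rnr1 was at 1210 ± 374 CPM in the controls, 408 ± 163 CPM at 1 Hz, 510.1 ± 186 CPM at 4 Hz, and 1158 ± 547 CPM at 10 Hz, and mt-Rnr2 at 4546 ± 1240 CPM, 2049 ± 597 CPM, 3032 ± 1345 CPM, and 4860 ± 1759 CPM. With the small RNA level as a covariate, the change of mt-Rnr1 at 1 Hz against control went from -1.57 (adjusted p = 0.000285, edgeR) to -0.54 (adjusted p = 0.71). Over the 15 mitochondrially encoded genes tested, 7 rose (17.7% of all genes did) and 0 fell (18.5%) at 10 Hz against 1 Hz (median 0.63). At 4 Hz against 1 Hz, 6 rose (5.71% of all genes) and 0 fell (6.56%), with a median of 0.68. After the correction for GC content and transcript length these counts were 4 and 0 (median 0.08) and 1 and 0 (median 0.27).

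The factors that build and serve the ribosome moved partly with it. Of 29 assembly factors, 1 rose (3.45%) and 8 fell (27.6%) at 1 Hz against control, with a median of -0.16. At 10 Hz against 1 Hz, 13 rose (44.8%) and 1 fell (3.45%), with a median of 0.22. Of all genes tested, 18.1% rose and 17.3% fell in the first comparison and 17.7% and 18.5% in the second. With the small RNA level as a covariate 0 assembly factors passed in either comparison. Mrm2 and Mrm1, which methylate the large ribosomal RNA, fell at 1 Hz by 0.85 and 0.66 on the log2 scale (adjusted p = 0.000221 and 0.000267, edgeR), and at 4 Hz Mrm1 fell by 0.56 and the GTPase Noa1 by 0.66. Mettl15, which methylates the small ribosomal RNA, rose by 1.15 at 1 Hz and 1.18 at 4 Hz. Of 12 translation factors, 0 rose and 4 fell (33.3%) at 1 Hz (median -0.17), led by the release factor Mtrf1l (-1.41), the formyltransferase Mtfmt (-0.62), and the initiation factor Mtif3 (-0.51). At 10 Hz against 1 Hz, 5 of them rose (41.7%) and 0 fell. Mtrf1l also fell at 4 Hz, by 0.95. At 4 Hz against control 19.2% of all genes rose and 20.2% fell. Of 19 aminoacyl-tRNA synthetases, 4 rose (21.1%) and 5 fell (26.3%) at 1 Hz, and 5 rose (26.3%) and 3 fell (15.8%) at 4 Hz, shares not far from those of all genes. Among them Fars2 rose (1.10 and 0.97) and Lars2 fell (-1.68 and -1.63), Pars2 fell at 1 Hz (-0.79), Wars2 rose at 4 Hz (0.76), and Nars2 (0.58) and Mars2 (0.54) rose at 10 Hz. Lars2 moved with the small RNAs, at 649 ± 95 CPM in the controls and 203 ± 148 CPM at 1 Hz, and its change at 4 Hz became 0.17 (adjusted p = 0.85, edgeR) with their level as a covariate. In a list of 22 genes that keep and copy mitochondrial DNA and RNA, Polg2, the accessory subunit of the DNA polymerase, fell at 1 and 4 Hz (-1.41 and -0.91) and Pnpt1, an RNA-degrading enzyme, at 1 Hz (-0.57).

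Of 9 known regulators of these genes, 4 rose and 0 fell at 1 Hz, 4 rose and 1 fell at 4 Hz, and 0 changed at 10 Hz against control. Of all genes, 18.1% rose and 17.3% fell at 1 Hz, 19.2% and 20.2% at 4 Hz, and 2.67% and 2.22% at 10 Hz. Tfam, Polrmt, and Lrpprc were listed apart from these 9 regulators. Tfam, which packages and transcribes mitochondrial DNA, Polrmt, its RNA polymerase, Gabpa, the DNA-binding part of GABP, and Nrf1 did not pass the test against control at any frequency. Their log2 fold changes lay between -0.20 and 0.21. Tfam was higher at 10 Hz than at 1 Hz (0.25 ± 0.10, adjusted p = 0.045, edgeR), and Nrf1 was lower (-0.27 ± 0.10, adjusted p = 0.029). Gabpb1, the partner of Gabpa, rose at 1 Hz (0.47 ± 0.14, adjusted p = 0.0081) and 4 Hz (0.55 ± 0.13, adjusted p = 0.0019). Ppargc1a, the exercise-responsive coactivator PGC-1 alpha, was at 4.99 ± 0.97 CPM in the controls, 6.46 ± 0.88 CPM at 1 Hz, 7.51 ± 1.42 CPM at 4 Hz, and 4.84 ± 1.81 CPM at 10 Hz, and its rise at 4 Hz (0.58 ± 0.20, adjusted p = 0.024, edgeR) missed 0.05 without 4 Hz replicate 1 or 4 or control replicate 1 (0.051 to 0.062). Ppargc1b did not pass at any frequency, while Pprc1 rose at 1 Hz (0.69 ± 0.10, adjusted p = 2.49e-05) and 4 Hz (0.37 ± 0.10, adjusted p = 0.0051). The nuclear receptor Esrra rose at 4 Hz (0.45 ± 0.12, adjusted p = 0.0057), as did Lrpprc, which stabilizes mitochondrial messengers (0.29 ± 0.11, adjusted p = 0.029), and on the TPM scale the adjusted p from limma was 0.14 and 0.54. For Lrpprc it also rose above 0.05 in edgeR without 4 Hz replicate 3 or 4 or control replicate 1, 2, 3, or 4 (0.051 to 0.072). Myc ran against the members between frequencies, at 87.5 ± 12.4 CPM at 1 Hz, 39.4 ± 6.0 CPM at 4 Hz, and 46.6 ± 7.4 CPM at 10 Hz, beside 53.1 ± 7.0 CPM in the controls (4 Hz against 1 Hz, -1.15 ± 0.12, adjusted p = 5.52e-07, edgeR).

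The cytosolic ribosome and nuclear complex I genes were read beside the members. Of all genes tested, 18.1% rose and 17.3% fell at 1 Hz, 19.2% and 20.2% at 4 Hz, and 2.67% and 2.22% at 10 Hz against control. Of 84 cytosolic ribosomal protein genes, 6 rose and 0 fell at 1 Hz (median 0.09, and -0.01 on the TPM scale, where 2 rose and 3 fell), 53 and 0 at 4 Hz (0.31), and 14 and 0 at 10 Hz (0.20) against control. On the TPM scale the counts were 21 and 4 at 4 Hz and 6 and 1 at 10 Hz. Of 48 nuclear genes of complex I, the first enzyme of the respiratory chain, 8 rose and 3 fell at 1 Hz (0.08), 35 and 0 at 4 Hz (0.38), and 12 and 0 at 10 Hz (0.20), with 4 and 6, 22 and 2, and 4 and 0 on the TPM scale. The members had medians of -0.11, 0.13, and 0.17 in the same comparisons. Most genes of both lists also lay above 0 at 4 and 10 Hz against 1 Hz. Of all genes, 49.2% were above 0 from 1 to 4 Hz (5.71% rose and 6.56% fell) and 51.5% from 1 to 10 Hz (17.7% and 18.5%). From 1 to 4 Hz, 83 of 84 cytosolic ribosomal protein genes were above 0 (23 rose and 0 fell, median 0.21), as were 47 of 48 complex I genes (24 and 0, 0.30), beside 75 of 78 members (30 and 0, 0.24). From 1 to 10 Hz the cytosolic list had 69 of 84 above 0 (19 and 0, 0.10) and complex I 32 of 48 (19 and 1, 0.15), beside 71 of 78 members (42 and 0, 0.27). After the correction for GC content and transcript length, 8 cytosolic genes rose and 8 fell in that comparison (median -0.02), and 15 and 11 of complex I (0.05). With the small RNA covariate 0 cytosolic genes and 1 of complex I rose, and 0 fell in either. The difference between these lists was not tested.

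**Figure D5:**
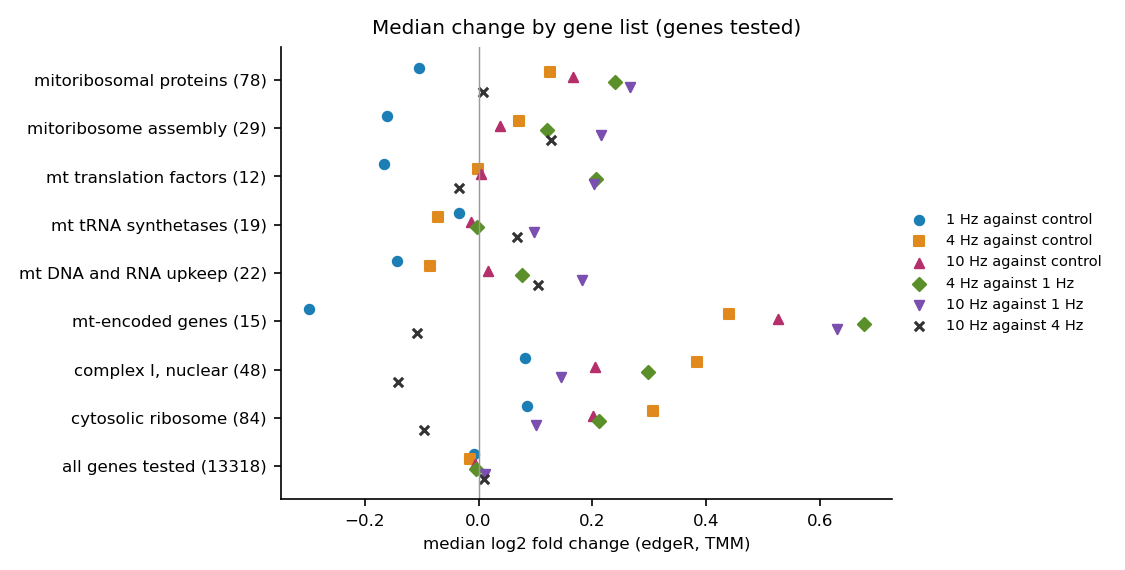
Median log2 fold change (edgeR, TMM scaling) of each gene list in the 6 comparisons, with the number of genes tested in parentheses. The mitoribosomal proteins lie below 0 for 1 Hz against control (-0.11) and above 0 for 4 Hz and 10 Hz against 1 Hz (0.24 and 0.27), while the cytosolic ribosome lies at 0.09 for 1 Hz against control (-0.01 on the TPM scale). All genes tested stay near 0 on this scale. On the TPM scale the median for 4 Hz against control is -0.04 over the members and -0.16 over all genes.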

How the data were processed

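RNA from 24 muscle tissues was sequenced after poly(A) selection, as 50-base paired-end reads from directional libraries. The labels state that low-input samples were ribodepleted and do not say which. The authors ran nf-core/rnaseq against GRCm39, in which STAR and Salmon are named in the submitters' processing notes, and the sources used here do not name the Ensembl release. The authors deposited gene-level estimated counts without normalization, with 6.62% to 10.6% fractional values in a library, and the authors also deposited TPM.

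Counts were rounded. edgeR 4.0.16 (R 4.3.3, limma 3.58.1) kept 13318 genes by filterByExpr, scaled by TMM, and tested 6 contrasts by the quasi-likelihood test with condition as the only factor and Benjamini-Hochberg adjustment. Lengths, starts, and motifs came from GENCODE M39 on GRCm39. Groups and replicate numbers came from the sample titles. p-values measure the spread between tissues of a single line. The members and gene lists were chosen with earlier results of these data known. Named were Mrpl12 and Mrps35, the 5 highest and 5 lowest levels, up to 4 called members per direction and comparison (otherwise the smallest p), the 3 largest and 3 smallest spreads, members with a pseudogene, regulators, and up to 3 called genes per related list against control.

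On simulated counts for 1 Hz against control (13318 genes, 200 changed), edgeR recovered 80% of changes of 1 and 64% of changes of 0.7 on the log2 scale, and 2.04% of calls were false. Among 60 pairs of libraries within conditions none differed by as little as sampling noise (lowest chi-square per gene 3.18). Alternatives were DESeq2 1.42.0, other scalings and filters, limma on log2(TPM + 1) and log2(TPM + 0.1), covariates, and leaving out each library.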

Additional observations from a re-analysis of the deposited data

Results flagged for a closer look

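Among 112 groups of 6 libraries (27 named members in 4 conditions, and 4 groups of sums), 8 held a library apart from the rest by Dixon's test, and chance gives about 1 in 20. In the controls these were Mrpl54 in replicate 2 at 9.20 CPM (the next at 14.0), Mrps11 in replicate 2 at 10.9 CPM (15.3), and Mrps27 in replicate 4 at 34.3 CPM (27.4). At 1 Hz they were Mrpl33 in replicate 5 at 90.3 CPM (109) and Mrps21 in replicate 6 at 51.4 CPM (46.5). At 4 Hz they were Mrps30 in replicate 2 at 58.3 CPM (47.2) and Mrpl24 in replicate 5 at 82.1 CPM (89.4), and at 10 Hz Mrps27 in replicate 2 at 26.7 CPM (30.8).

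Among the 27 named members, some differed between frequencies past the fold rule, by edgeR's test of the difference. At 4 Hz against 1 Hz these were Mrpl41 (0.68), Mrpl13 (0.55), Mrps22 (0.54), and Mrpl1 (0.50, which lost its adjusted p when any of 7 libraries was left out). At 10 Hz against 1 Hz they were Mrps22 (0.80), Mrpl1 (0.66), Mrpl41 (0.62), Mrpl46 (0.61), and Mrpl35 (0.50), among 11 of all 78 members past it, and at 10 Hz against 4 Hz Mrps28 (-0.60).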

How the results depend on the processing

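Counts here are members past the fold rule, as higher or lower. For 1 Hz against control, 1 was higher and 3 lower. The higher count became 5 by adjusted p alone, 2 with GC content and length correction or no filter on low counts, and 0 with the small RNA covariate, and the lower count became 20, 1 (GC and length), 10 on log2(TPM + 0.1), 8 on log2(TPM + 1) with or without a filter, 0 (covariate), and 7 (total count). For 4 Hz against control, 8 higher became 28 (adjusted p alone), 5 (GC and length), 3 on each TPM scale, 2 (covariate), and 4 (total count), and 2 lower became 7, 1 (GC and length), 7 and 5 (TPM + 0.1, TPM + 1), 1 (no filter), and 0 (covariate). For 10 Hz against control, 0 higher became 8 by adjusted p alone and 1 with a mean of at least 5 CPM, no filter, or the covariate. For 4 Hz against 1 Hz, 4 higher became 30, 2 (GC and length), and 2 on each TPM scale. For 10 Hz against 1 Hz, 11 higher became 42, 7 (GC and length), and 2 (covariate). For 10 Hz against 4 Hz, 0 higher became 10, 2 on each TPM scale, and 1 (total count), and 1 lower became 6, 2 (GC and length or no filter), and 0 (covariate, and TPM + 1 without a filter). The cause was not tested. Leaving out each library in turn gave 1 to 3 higher and 3 to 5 lower at 1 Hz against control, 7 to 10 and 1 to 2 at 4 Hz, 0 to 1 and 0 at 10 Hz, 2 to 5 and 0 for 4 Hz against 1 Hz, 7 to 15 and 0 for 10 Hz against 1 Hz, and 0 to 1 and 1 to 2 for 10 Hz against 4 Hz.

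Of 65 single-gene comparisons, 58 were past the adjusted p. With the covariate 47 of the 65 no longer passed it, and 3 changed sign, to 0.17 for Lars2, -0.12 for Ppargc1a (both 4 Hz against control), and -0.029 for Mrpl12 at 1 Hz. Mrpl12 at 1 Hz, 0.00 in the main test, also turned to -0.0004589 (DESeq2), -0.0005889 (DESeq2 size factors), -0.057 (each TPM scale), -0.023 (at least 5 CPM), and -0.078 (total count) and ranged from -0.0604 to 0.0405 when single libraries were left out. Mrps35 at 10 Hz against control turned to -0.044 on each TPM scale. For the replicate block, deviations of same-numbered libraries from their group means correlated at -0.18 to 0.36 (10 of 36 pairs above 0.1). The median was 0.017 for same-numbered pairs and -0.013 for pairs with other numbers. The labels do not say whether a number marks a shared plate or day, and these correlations cannot decide it. The replicate block gave 1 and 3, 8 and 2, 0 and 0, 4 and 0, 10 and 0, and 0 and 1 members in the 6 comparisons, and Mrpl12 at 1 Hz turned to -0.0009576. Light condition and small RNA content cannot be told apart for 1 or 4 Hz against control, and the lowest member counts (32 in a library) limit precision.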
